A study of Homo sapiens and Mus musculus with 16 samples.

Results

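The heterogeneous nuclear ribonucleoproteins (hnRNPs) and the serine/arginine-rich (SR) splicing factors were followed in the mRNA transcriptome of SK-HEP-1 cells, a human liver cancer cell line, during the first hours of exposure to a fungal extract. The members were all genes of the mRNA table whose symbol starts with HNRNP (22 genes) or SRSF (13 genes), which makes 35 of the 22314 genes listed. Of these, 19 hnRNP and 9 SR genes, 28 in all, had a mean of at least 1 FPKM (fragments per kilobase of transcript, scaled to the mapped fragments of the library) over the 4 libraries, as did 5445 genes of the whole table. The untreated cells received DMSO, the solvent, for 2 h (2U) or 4 h (4U), and the treated cells received 0.5 mg/ml of an ethanol extract of the fruiting body of *Antrodia cinnamomea* (AcFBE) for 2 h (2T) or 4 h (4T). Each of these 4 conditions was 1 poly(A)-selected library sequenced on a SOLiD 3 instrument, among 16 samples of which the others are small RNA libraries. No value below has a replicate, so a difference between 2 libraries is a difference between those libraries, and the number of reads behind an FPKM is unknown.

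Pre-mRNA leaves the polymerase already covered by proteins, and the 2 families are among the most abundant of them. SR proteins pair RNA recognition motifs with a tail of arginine and serine repeats. They bind exonic enhancers and recruit the U1 and U2 small nuclear ribonucleoproteins, so that they mostly favour inclusion of the exon they bind. The hnRNPs package nascent transcripts and many of them act through silencer elements, where they oppose SR proteins, although either kind can help or hinder a splice site depending on where it sits. Several genes of both families limit their own output by splicing in a poison exon or by a similar event in the 3′ untranslated region, which sends the transcript to nonsense-mediated decay. A gene's FPKM pools its productive and decay-bound transcripts. In the GENCODE annotation of GRCh37, 12 of the 19 hnRNP genes and all 9 SR genes past the filter carry at least 1 transcript marked for nonsense-mediated decay, against 48.8% of all matched genes past the filter.

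Several hnRNP genes have near-identical copies elsewhere in the genome, and reads from the copies can be split between them in the deposited values. Short stretches of coding sequence, or their counterparts in a copy, show how alike they are, with capitals marking bases that differ from the parent gene listed first (GRCh37, 5′ to 3′ on the strand of the gene, sequences and annotation from GENCODE).
HNRNPA1, chr12:54675170-54675199, plus strand, in coding sequence: tctcctaaagagcccgaacagctgaggaag
HNRNPA1P10, chr19:11777801-11777830, minus strand, in a processed pseudogene: tctcctaaagagcccgaacagctgaggaag
HNRNPA1L2, chr13:53216643-53216672, plus strand, in a single-exon copy gene: tctccAaaagagcccgaacagctgaggaag
HNRNPC, chr14:21702323-21702352, minus strand, start of the coding sequence: atggccagcaacgttaccaacaagacagat
HNRNPCL1, chr1:12908113-12908142, minus strand, start of the coding sequence of a copy gene: atggccagcaacgttaccaacaagaTGgat
HNRNPH1, chr5:179050105-179050134, minus strand, start of the coding sequence: atgatgttgggcacggaaggtggagaggga
HNRNPH2, chrX:100666977-100667006, plus strand, start of the coding sequence: atgatgCtgAgcacggaaggCAgGgagggG
HNRNPA1P10 could not be told from HNRNPA1 in this stretch, HNRNPA1L2 differed at 1 base, HNRNPCL1 differed from HNRNPC at 2 bases, and HNRNPH2, a diverged paralog rather than a recent copy, differed from HNRNPH1 at 6. Over whole transcripts, 94.0% of the 35-base windows of HNRNPA1P10 also occur in another annotated gene, as do 57.9% of those of HNRNPCL1, 43.3% of HNRNPL, 34.6% of HNRNPA1, 30.8% of SRSF1, 27.3% of HNRNPK, 20.8% of HNRNPC, 18.7% of HNRNPA3, 18.5% of SRSF6 and 17.8% of HNRNPH2. The values of these genes are uncertain, but the shares do not measure by how much. The 35-base length was chosen here, as the read length of the mRNA libraries was not found. Not all sharing is with a copy elsewhere: 14.6% of the windows of HNRNPH2 occur in RPL36A-HNRNPH2, a joint annotation that includes HNRNPH2 itself. For HNRNPA2B1, HNRNPM, SRSF4 and SRSF7 no such window was shared.

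Some properties of the libraries touch every result below. Genes listed above 0 numbered 10691 in 2U against 8454 in 2T, and 9550 in 4U against 9773 in 4T. The gene numbers printed in the paper equal these at 4 h but differ at 2 h, where the paper has more genes in 2T than in 2U. The deposited 2 h values may therefore not be those the paper counted, and every 2 h result below rests on them. The 2 h libraries list values down to 0.0001 FPKM and the 4 h libraries none between 0 and 0.2. The median treated over untreated ratio of all genes was 0.03 on the log2 scale at 2 h and -0.35 at 4 h, so that at 4 h the ratios of the members stand against a table shifted downward. The ratio also moved with the base composition of the transcript: its Spearman correlation with GC content across genes was -0.245 at 2 h (5029 genes) and -0.683 at 4 h (5192 genes), a description over genes that share the same libraries. The median GC content was 42.4% in the hnRNP genes and 39.8% in the SR genes, against 52.8% in all genes past the filter. The defining markers of hepatocytes were mostly missing, as 8 of 10 were listed at 0 in all 4 libraries, AFP reached 0.222 FPKM in 2U and 0.621 in 4T, and SERPINA1 ranged from 8.59 to 18.7. All 6 endothelial markers examined were at 0. A listed 0 may be a failed estimate, since SREK1, a broadly used splicing factor, was at 0 in all 4 libraries, and ACIN1 was at 0 in both 2 h libraries but at 3.08 in 4U and 3.18 in 4T.

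Most members had higher FPKM in the treated library than in the untreated one. At 2 h, 13 of 19 hnRNP genes were at least 2-fold higher in 2T than in 2U and 2 were at least 2-fold lower, and of the SR genes 7 of 9 were higher and 1 was lower. Among all genes past the filter, 22.6% were at least 2-fold higher at 2 h and 18.7% lower. At 4 h, 7 of 19 hnRNP and 3 of 9 SR genes were at least 2-fold higher in 4T than in 4U, 1 hnRNP gene and no SR gene was lower, and the shares of all genes were 16.4% and 27.7%. The filter uses the mean of treated and untreated libraries together, so a gene low in untreated cells can pass it through its treated values. HNRNPA3, HNRNPH2, HNRNPH3, HNRNPU and SRSF11 were under 1 FPKM in 2U and at no more than 1.24 in 4U. All of them count as higher at 2 h. The same filter was used for all genes. The following counts cover all 35 members, including those under the filter. In 2T 15 of 22 hnRNP and 7 of 13 SR genes were listed higher than in 2U, and 7 and 4 lower. In 4T 19 and 10 were listed higher than in 4U, and 3 and 2 lower. Of all 22314 genes, 4379 were higher and 6316 lower at 2 h, and 4645 higher and 6019 lower at 4 h. FPKM is a share of the library, so fewer cells of a kind and less RNA per cell cannot be told apart. HNRNPC, the most abundant in 2U of the 22 genes with the HNRNP prefix, stood apart from most of them. Its level was 7.50-fold lower in 2T and 2.66-fold lower in 4T.

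**Figure D1:**
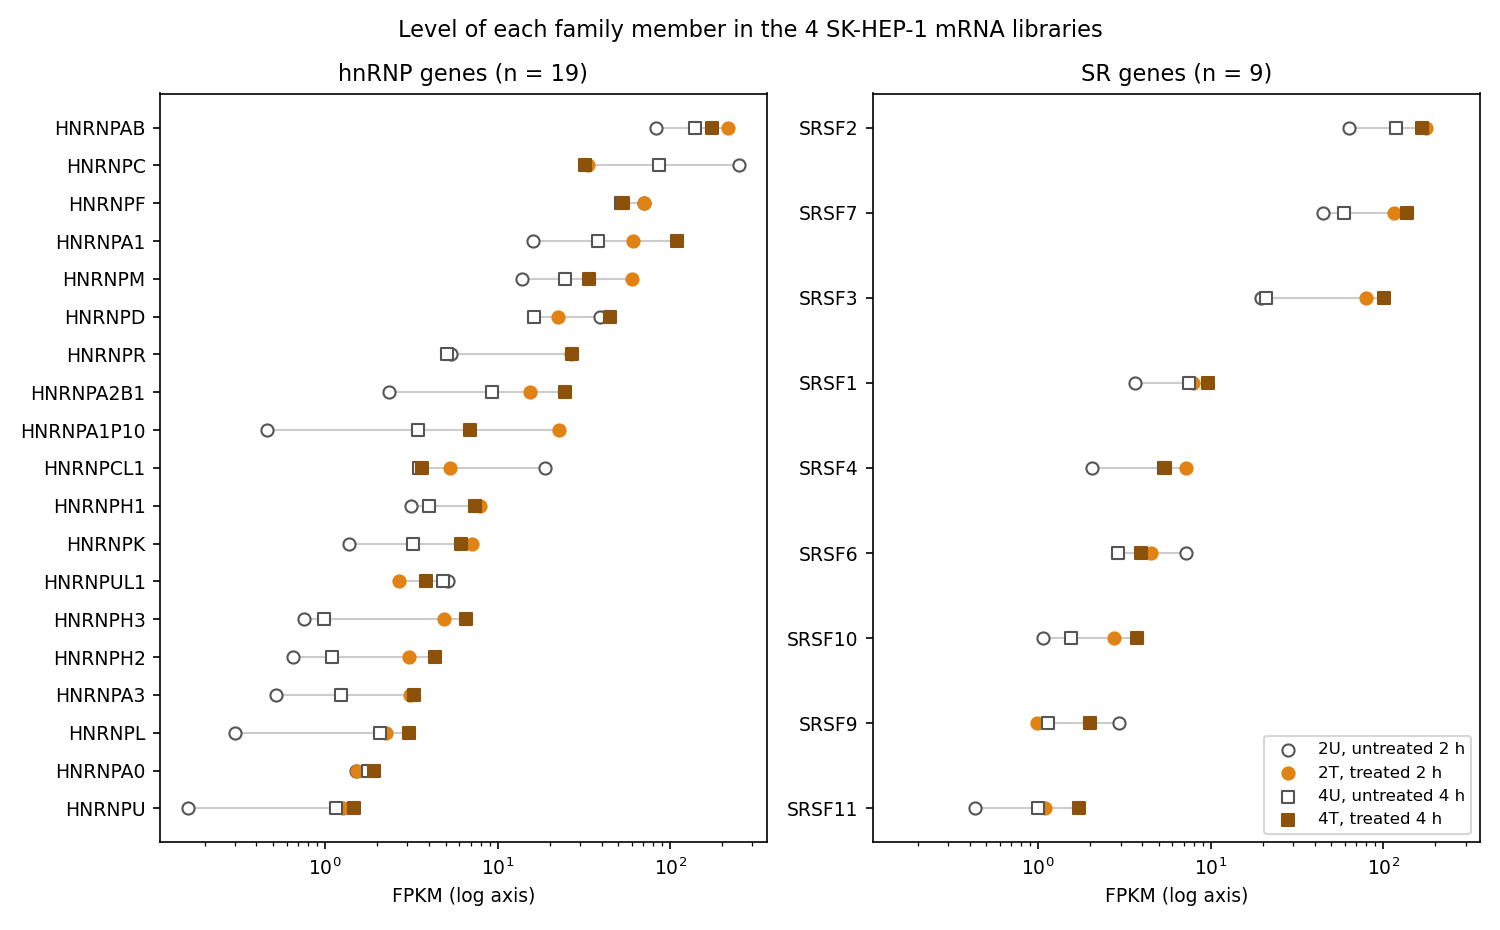
FPKM (log axis) of the 19 hnRNP genes (left) and 9 SR genes (right) with a mean of at least 1 FPKM, ordered by mean, in each of the 4 libraries. Open symbols are untreated, filled symbols treated, circles 2 h and squares 4 h, with a grey line over the range. For most genes the filled symbols lie to the right, while for HNRNPC they lie to the left, at 33.5 FPKM in 2T and 32.2 in 4T against 251 in 2U and 85.6 in 4U.

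The A/B hnRNPs are the core packaging proteins and bind many splicing silencers. HNRNPA1, the best studied silencer-binding hnRNP, was at 16.0 FPKM in 2U against 60.6 in 2T, and 38.0 in 4U against 109 in 4T. Both treated libraries were above both untreated ones, with a fold of 3.79 at 2 h and 2.86 at 4 h. HNRNPA2B1, its partner in hnRNP complexes that also sorts RNA for transport, was at 2.35 in 2U against 15.5 in 2T, and 9.22 in 4U against 24.5 in 4T, a fold of 6.58 at 2 h and 2.65 at 4 h. HNRNPA3, a related shuttling protein, was at 0.517, 3.11, 1.24 and 3.28 FPKM in 2U, 2T, 4U and 4T, the order kept below where no library is named, and its folds were 6.01 and 2.64. All 3 were at least 2-fold higher at both times, and all 3 were also more than 2-fold higher in 4U than in 2U, by 2.38, 3.92 and 2.40, so the 2 h folds were taken against the lower untreated library. After adjustment for the trend of all genes with GC content and transcript length, the 4 h log2 ratio was 1.04 for HNRNPA1 but 0.34 for HNRNPA2B1 and 0.40 for HNRNPA3, under 2-fold.

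HNRNPAB, a DNA and RNA binding member of this group, had the highest mean FPKM of the family. It was at 82.3 FPKM in 2U against 218 in 2T, and 139 in 4U against 176 in 4T, which is 2.65-fold higher at 2 h and 1.27-fold at 4 h. The treated and untreated values did not overlap. HNRNPA0, a single-exon gene whose protein binds AU-rich elements of cytokine mRNAs, was between 1.51 and 1.92 FPKM in all 4 libraries. The pseudogene HNRNPA1P10 was at 0.463 in 2U against 22.7 in 2T, and 3.47 in 4U against 6.91 in 4T. Its 48.9-fold higher level in 2T is the largest ratio of the 28 members at 2 h, but 81.5% of its 35-base windows also occur in HNRNPA1, and its value in 2T did not follow HNRNPA1, which had its highest value in 4T.

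HNRNPC forms the tetramers that wind nascent RNA, and it binds uridine tracts, where it keeps U2AF from using cryptic splice sites. It was at 251 FPKM in 2U against 33.5 in 2T, and 85.6 in 4U against 32.2 in 4T. The treated libraries nearly coincided and were below both untreated libraries, and 4U itself stood at 0.341 times the level of 2U. HNRNPC alone made up 48.9% of the summed FPKM of the 19 hnRNP genes of 2U and 21.6% of that of 4U, but 5.89% in 2T and 5.87% in 4T. Its transcript is AU-rich (40.2% GC), and the fifth of genes with the lowest GC content had median log2 ratios of 0.72 at 2 h and 1.02 at 4 h. Subtracting the trend of all genes with GC content and length took its log2 ratio from -2.91 to -3.66 at 2 h and from -1.41 to -2.29 at 4 h. HNRNPCL1, the copy gene shown above, was at 18.8 in 2U against 5.33 in 2T, and 3.49 in 4U against 3.64 in 4T, and the share of its value that came from HNRNPC reads was not tested. At 2 h HNRNPCL1 was 3.52-fold lower in the treated library, and at 4 h the fold was 1.04.

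The F/H hnRNPs bind runs of guanines near splice sites and polyadenylation signals. HNRNPH1 was at 3.16 FPKM in 2U against 7.87 in 2T, and 4.00 in 4U against 7.41 in 4T, its paralog HNRNPH2 at 0.650, 3.06, 1.09 and 4.33, and HNRNPH3, a shorter relative, at 0.750, 4.87, 0.981 and 6.54. In each of these 3 genes both treated libraries were above both untreated ones. The folds at 2 h and 4 h were 2.49 and 1.85 for HNRNPH1, 4.71 and 3.96 for HNRNPH2, and 6.49 and 6.67 for HNRNPH3, which had the largest 4 h ratio of the 28 members. HNRNPF, the most abundant of the group, was at 70.6 in 2U against 70.1 in 2T, and 51.9 in 4U against 53.5 in 4T, and its folds were 0.993 at 2 h and 1.03 at 4 h. The F/H genes therefore ranged from a member level with its untreated libraries to the largest 4 h ratio of the 28.

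**Figure D2:**
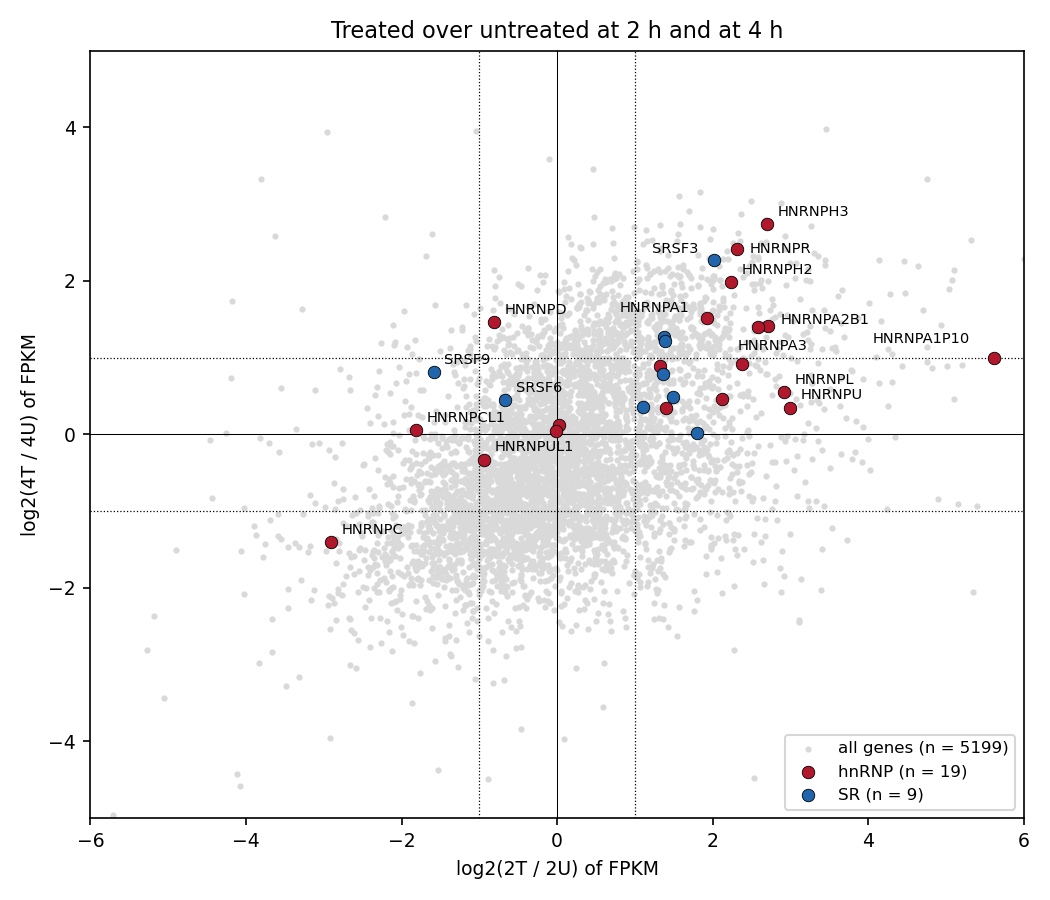
Log2 ratio of FPKM in treated over untreated cells at 2 h (horizontal axis) and 4 h (vertical axis). Grey points are 5199 genes with a mean of at least 1 FPKM and above 0 in all 4 libraries, 24 of them beyond the axes. Red points are 19 hnRNP genes and blue points 9 SR genes. Dotted lines mark 2-fold. HNRNPH3 lies at 2.70 and 2.74, SRSF3 at 2.02 and 2.28, and HNRNPC at -2.91 and -1.41.

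HNRNPR, a relative of SYNCRIP that binds mRNA in the nucleus and in axons, had a pattern in which time made little difference. It was at 5.40 FPKM in 2U against 26.8 in 2T, and 5.10 in 4U against 27.1 in 4T, and its folds were 4.95 at 2 h and 5.32 at 4 h. HNRNPK, which binds cytidine-rich RNA and DNA through KH domains, was at 1.37, 7.13, 3.24 and 6.12 (folds of 5.20 and 1.89). HNRNPM, a regulator of exon choice in the epithelial to mesenchymal transition, was at 13.8 in 2U against 60.2 in 2T, and 24.5 in 4U against 33.8 in 4T (folds of 4.36 and 1.38). All 3 had both treated libraries above both untreated ones, but only HNRNPR was at least 2-fold higher at both times. HNRNPR has 35.1% GC, and after adjustment for GC content and transcript length its log2 ratios went from 2.31 and 2.41 to 1.06 and 1.17.

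HNRNPL, which binds CA repeats, was at 0.299 FPKM in 2U against 2.26 in 2T, and 2.08 in 4U against 3.05 in 4T. HNRNPU, the scaffold attachment factor that ties RNA to chromatin, was at 0.160 in 2U against 1.27 in 2T, and 1.16 in 4U against 1.47 in 4T. In both genes 2U alone was low and the other 3 libraries were close together, so the folds of 7.54 and 7.96 at 2 h stood beside 1.46 and 1.27 at 4 h, and 4U was 6.96-fold and 7.23-fold higher than 2U. The HNRNPU value of 2U also lies under the lowest value above 0 that the 4 h libraries list. HNRNPUL1, a relative of HNRNPU, was at 5.13, 2.68, 4.85 and 3.86 FPKM and, with HNRNPC, was the other hnRNP gene whose treated libraries were both below both untreated ones. HNRNPD (AUF1), which binds AU-rich elements and promotes mRNA decay, was at 39.4 in 2U against 22.4 in 2T, and 16.3 in 4U against 44.8 in 4T. It was 1.76-fold lower in the treated library at 2 h and 2.75-fold higher at 4 h, and the treated and untreated values overlapped.

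The 3 hnRNP genes under the filter were HNRNPA1L2, at 0 to 0.307 FPKM, the pseudogene HNRNPA3P1, at 0.145 to 0.851, and HNRNPUL2, at 0 to 0.841. Genes at these levels were given no ratio. Another 2 hnRNP genes of the table carry the older prefix HNRP and were not members: HNRPDL was at 36.2, 60.8, 36.3 and 50.3 FPKM in 2U, 2T, 4U and 4T, and HNRPLL at 1.93, 0.887, 2.28 and 1.51.

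Among the SR proteins, SRSF3 and SRSF7 are small members that travel with mRNA to the cytoplasm and link splicing and 3′ end choice to nuclear export. SRSF3 was at 19.7 FPKM in 2U against 79.7 in 2T, and 20.9 in 4U against 101 in 4T, and the untreated libraries differed by only 1.06-fold. Its folds of 4.05 at 2 h and 4.85 at 4 h were the largest of the SR genes at each time. SRSF7 was at 44.5 in 2U against 116 in 2T, and 59.0 in 4U against 137 in 4T, with folds of 2.61 and 2.32. SRSF10, which blocks splicing when it is dephosphorylated in heat shock, was at 1.06, 2.76, 1.55 and 3.73 (folds of 2.60 and 2.41). These 3 were the SR genes at least 2-fold higher at both times. After the trend of all genes with GC content and length was subtracted, the log2 ratios of SRSF7 were 0.55 and 0.20 and those of SRSF10 were 0.24 and 0.13, under 2-fold at both times, while SRSF3 kept 1.23 and 1.40.

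SRSF2 (SC35), a nuclear speckle protein that stimulates exon inclusion, had the highest mean FPKM of the SR genes. It was at 63.4 FPKM in 2U against 178 in 2T, and 119 in 4U against 167 in 4T, which is 2.80-fold higher at 2 h and 1.41-fold at 4 h. SRSF1 (SF2/ASF), the founding member of the family and an oncoprotein when overproduced, was at 3.66 in 2U against 7.85 in 2T, and 7.53 in 4U against 9.67 in 4T, with folds of 2.15 and 1.28. SRSF4, a large member with a long arginine and serine tail, was at 2.05, 7.15, 5.37 and 5.43, and was 3.49-fold higher at 2 h while 4U and 4T differed by 1.01-fold. SRSF11, which associates with U2AF, was at 0.428, 1.10, 0.998 and 1.71 (folds of 2.56 and 1.72). In all 4 genes the treated libraries were both above both untreated ones, and in all 4 the untreated library was lower at 2 h than at 4 h.

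SRSF9 and SRSF6 broke the pattern of the family. SRSF9 was at 2.96 FPKM in 2U against 0.985 in 2T, and 1.13 in 4U against 1.99 in 4T, which is 3.00-fold lower at 2 h and 1.75-fold higher at 4 h. SRSF6, a paralog of SRSF4, was at 7.18, 4.52, 2.90 and 3.96, with ratios of -0.67 and 0.45 on the log2 scale. In both genes 2U was the highest library and the treated and untreated values overlapped. Of the 4 SR genes under the filter, SRSF5 was at 0 to 1.19 FPKM, SRSF8 at 0.739 to 1.08 and SRSF12 at 0 in all 4 libraries. SRSF2IP, at 0 to 0.339, shares the prefix but is the SR-related gene now called SCAF11.

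Set side by side, the hnRNP genes had the higher median at both times. The median log2 ratio at 2 h was 2.12 for hnRNP and 1.38 for SR genes, a difference of 0.75, and the medians 4 h after treatment were 0.89 and 0.78, a difference of 0.11. The ranges overlapped at each time, from -2.91 to 5.61 for hnRNP and from -1.59 to 2.02 for SR genes at 2 h, and from -1.41 to 2.74 and from 0.01 to 2.28 at 4 h. With a mean of at least 10 FPKM the differences were 0.18 at 2 h and -0.28 at 4 h, and with a pseudocount of 1 they were 0.40 and 0.26. With 1 library per condition the difference between the families was not tested. Relative to the median of all genes, the 4 h medians were 1.25 for hnRNP and 1.13 for SR genes. Centring on that median moved the split of all genes at 4 h from 883 higher and 1496 lower to 1274 higher and 886 lower. It took the genes at least 2-fold higher at 4 h from 7 to 10 for hnRNP and from 3 to 5 for SR.

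By summed levels the order of the families was the reverse of that by medians. The summed FPKM of the 9 SR genes was 2.74-fold higher in 2T than in 2U and 1.98-fold higher in 4T than in 4U. That of the 19 hnRNP genes was 1.11-fold and 1.38-fold higher, and without HNRNPC 2.04-fold and 1.66-fold higher. The nearly level hnRNP sum at 2 h therefore combined a large deficit in 1 abundant gene with higher levels in most of the others.

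Taking both times, 6 hnRNP genes (HNRNPA1, HNRNPA2B1, HNRNPA3, HNRNPH2, HNRNPH3 and HNRNPR) and 3 SR genes were at least 2-fold higher at each, against 8.31% of all genes, and HNRNPC alone was at least 2-fold lower at each, against 10.2%. Among the 6, HNRNPA3, HNRNPH2 and HNRNPH3 were low in the untreated libraries and passed the filter through their treated values. Both treated libraries were above both untreated ones in 13 of 19 hnRNP and 7 of 9 SR genes (23.7% of all genes) and below in 2 hnRNP genes (33.4% of all genes). The treated libraries of the 2 times were alike, since 17 of 19 hnRNP and 8 of 9 SR genes were within 2-fold between 2T and 4T, near the 90.7% of all genes. The untreated libraries were less so. The median log2 ratio of 4U over 2U was 0.75 for hnRNP and 0.55 for SR genes (0.15 for all genes), and 7 hnRNP and 3 SR genes were at least 2-fold higher in 4U than in 2U, against 21.6% of all genes. In the other direction, 3 hnRNP and 2 SR genes were at least 2-fold lower in 4U, against 9.89% of all genes. Library 2U was the lowest of the 4 for 13 of 19 hnRNP and 7 of 9 SR genes, against 31.2% of all genes, and what set 2U apart was not tested.

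The base composition of the transcripts moved with these counts. When all genes were split into 5 equal groups by GC content, the lowest group, 30.7 to 43.9%, held 12 of the 19 hnRNP and 6 of the 9 SR genes. Within that group, 9 of 12 hnRNP and 5 of 6 SR genes were at least 2-fold higher at 2 h, against 40.9% of all genes there, and 7 of 12 and 3 of 6 at 4 h, against 50.7%. At 4 h the medians were 1.41 for hnRNP, 1.0 for SR and 1.02 for all genes of the group. The SR median was close to that of all genes of the group, and the hnRNP median was above it. At 2 h the medians were 2.27, 1.37 and 0.72. Whether base composition accounts for these values was not tested. After the trend of all genes with GC content and length was subtracted, an alternative chosen after the data were seen, the median ratio was 1.56 for hnRNP and 0.55 for SR genes at 2 h, and 0.49 and 0.20 at 4 h. The adjustment also took HNRNPH1 (0.81), SRSF1 (0.28) and SRSF11 (0.58) under 2-fold at 2 h and HNRNPD (0.84) at 4 h, and brought HNRNPD (-1.34) and SRSF6 (-1.39) at 2 h and HNRNPL (1.09) at 4 h past it. Under that adjustment, 5 hnRNP genes and 1 SR gene were at least 2-fold higher at both times, against 6 and 3 without it. HNRNPL was among the 5, and HNRNPA2B1 and HNRNPA3 were not. The adjusted share of all genes at both times was not computed. All genes split under the adjustment into 962 at least 2-fold higher and 929 lower at 2 h, and 488 and 454 at 4 h.

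**Figure D3:**
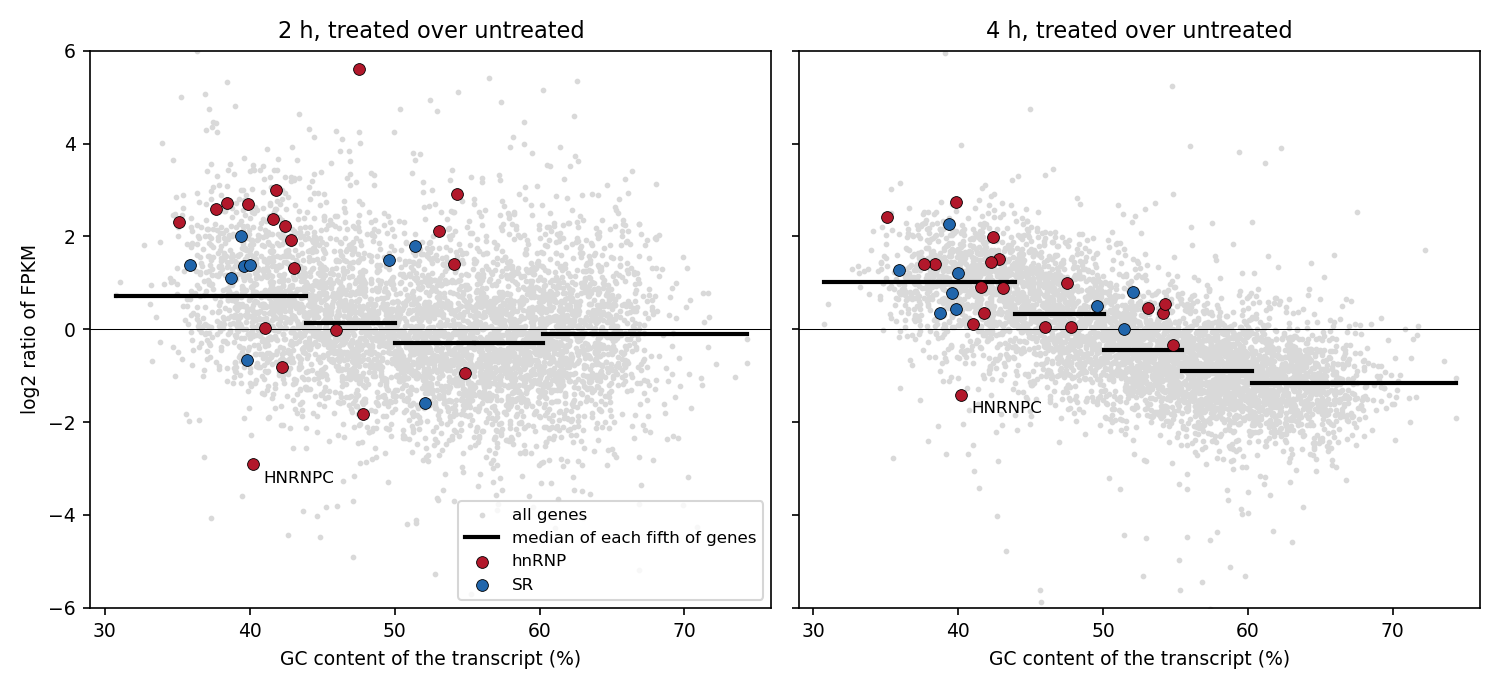
Log2 ratio of FPKM in treated over untreated cells against the GC content of the transcript (%), at 2 h (left, 5029 genes, 19 beyond the axis) and 4 h (right, 5192 genes, 7 beyond the axis). Grey points are all genes past the filter with a matched transcript, and black lines the median of each of 5 groups of them by GC content. Red points are hnRNP and blue points SR genes. The line falls from 1.02 in the lowest group to -1.16 in the highest at 4 h, and HNRNPC lies below the line at both times.

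The treatment was also fitted over both times with limma on log2(FPKM + 1), with time as a term, which leaves 1 residual degree of freedom. No member of the 28 passed a Benjamini-Hochberg adjusted p of 0.05 over all genes, and 0.165% of the 5445 genes did (9 genes, 1 higher and 8 lower). At an unadjusted p under 0.05, 11 members stood out, against 19.6% of all genes. These were HNRNPA1, HNRNPA1P10, HNRNPA2B1, HNRNPA3, HNRNPC, HNRNPH2, HNRNPH3, HNRNPK and HNRNPR among the hnRNP genes and SRSF3 and SRSF7 among the SR genes. The smallest adjusted p of limma among members was 0.147, shared by HNRNPR, SRSF3 and HNRNPH3, whose log2 fold changes on this scale were 2.16 (SE 0.43), 2.09 (SE 0.43) and 1.84 (SE 0.41). HNRNPA1 had 1.68 (SE 0.43), SRSF7 1.28 (SE 0.41) and HNRNPC -2.13 (SE 0.51). The added 1 FPKM understates the change of low genes such as HNRNPU, at 0.58 (SE 0.42).

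The genes of proteins that work with the families differed among themselves. Of 11 hnRNPs that carry other symbols, 8 passed the filter, with a median log2 ratio of 0.55 at 2 h and -0.79 at 4 h. At least 2-fold lower at both times were PCBP1 and PCBP2, the poly(C)-binding hnRNPs E1 and E2. PCBP1 was at 377 FPKM in 2U against 145 in 2T, and 340 in 4U against 123 in 4T, and PCBP2 at 23.1, 9.12, 11.6 and 3.97. Of 16 SR-like and SR-related genes 10 passed, with medians of 1.56 at 2 h (9 genes, without ACIN1) and 0.01 at 4 h, and TRA2B, an exon activator (5.80, 16.0, 8.76 and 22.9 FPKM in 2U, 2T, 4U and 4T), and PNN, a speckle protein (1.06, 3.16, 1.30 and 2.85), were at least 2-fold higher at both times. The genes for the kinases and the importer that act on SR proteins were mostly low, with 3 of 10 past the filter (CLK1, CLK2 and CLK3), and none was at least 2-fold different in the same direction at both times.

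The snRNP core, the machinery that cuts and joins, had all 24 genes past the filter and medians of 0.48 at 2 h and 0.24 at 4 h. At 2 h 4 of them were at least 2-fold higher and 5 lower, and at 4 h 6 were higher and 2 lower, set beside 22.6% and 18.7% of all genes at 2 h, then 16.4% and 27.7% at 4 h. SNRPB2, SNRPD1, SNRPE and SF3A3 were at least 2-fold higher at both times, and EFTUD2 and SF3A1 at least 2-fold lower. EFTUD2, the GTPase of the U5 particle, was at 91.5 FPKM in 2U against 18.0 in 2T, and 43.7 in 4U against 18.4 in 4T, the shape also seen in HNRNPC. Among 6 of 18 other splicing regulators past the filter (medians of -0.59 and -0.63) TIAL1, a uridine-binding protein, was at 18.9, 1.57, 3.62 and 1.77, and ELAVL1 (HuR), which stabilises AU-rich mRNAs, at 9.73, 3.54, 8.08 and 2.71, and both were at least 2-fold lower at both times. Of the decay and exon junction genes, 7 of 12 passed (medians of 0.98 and 0.54), and MAGOH (2.40, 14.4, 1.98 and 9.63 FPKM) and RBM8A (7.91, 20.3, 9.06 and 25.1), the partners that lock the exon junction complex on RNA, were at least 2-fold higher at both times. In limma no gene of these lists had an adjusted p under 0.147.

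**Figure D4:**
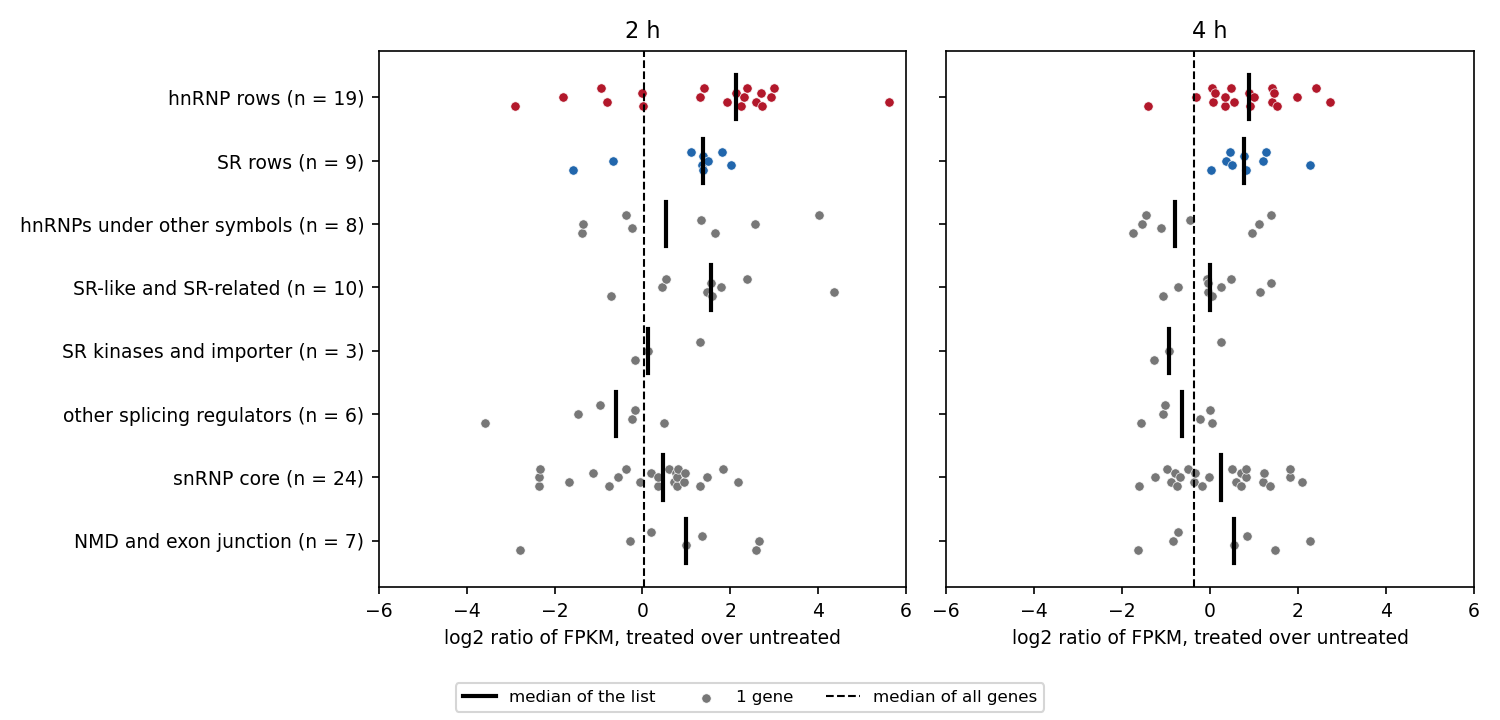
Log2 ratio of FPKM in treated over untreated cells at 2 h (left) and 4 h (right) for each gene past the filter in the 2 families and in 6 lists of their partners, 1 point per gene, with the number of genes beside each name. Black bars are medians of the lists and the dashed line is the median of all genes, 0.03 at 2 h and -0.35 at 4 h.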

How the data were processed

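Poly(A) RNA of SK-HEP-1 cells (4 libraries of 16 samples, groups from the titles) was sequenced by the authors on SOLiD 3. The deposited FPKM values per gene were made by the authors from alignment to hg19 with Cufflinks. The submitters' processing notes name TopHat and the paper Bowtie, and their versions for mRNA are not given in the sources used here. No counts were used, so the depth behind a gene is unknown. The small RNA tables were not used here.

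Log2 ratios of treated over untreated FPKM used no pseudocount, for genes with a mean of at least 1 FPKM over the 4 libraries and above 0 in both libraries compared, and a gene was called at 2-fold or more. Treatment over both times was fitted on log2(FPKM + 1) with limma 3.58.1 in R 4.3.3, with time as a term and Benjamini-Hochberg adjustment over all genes past the filter. The fit was tested on data simulated with the same noise for every gene and no trend with GC content. It recovered 44.5% of the genes changed by 1 on the log2 scale and 99% of those changed by 2. The real libraries differ from that setting, so these shares do not carry over to them. Python 3.11.15, numpy 2.4.6, pandas 2.3.3 and matplotlib 3.10.9 were used otherwise. GC content and length were those of the canonical transcript in GENCODE 44 lifted to GRCh37, which matched 95.8% of genes past the filter.

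Given in full were members at least 2-fold different at either time, the 3 of each family with the highest mean, and members of the other splicing lists at least 2-fold different in the same direction at both times, apart from 1 that is not reported here. HNRNPA0, HNRNPUL1, SRSF6 and the members under the filter fall outside that rule and are given so that every member is covered. The members and lists were chosen with earlier results of these data known. Alternatives covered the pseudocount, filter, scaling, fold, copy genes, GC content and length, time term and each library.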

Additional observations from a re-analysis of the deposited data

Results flagged for a closer look

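In 5 of the 28 members past the filter the treated library was above the untreated one at one time and below it at the other, and with 1 library per condition none of these differences between times was tested. The share of all genes that turned in this way was not computed, so the count cannot be called high or low. The log2 ratio was -1.82 at 2 h and 0.058 at 4 h for HNRNPCL1, -0.81 and 1.46 for HNRNPD, -0.0099 and 0.043 for HNRNPF, -0.67 and 0.45 for SRSF6, and -1.59 and 0.81 for SRSF9. In each of the 5 the level of 2U was above that of 4U. The 2 h ratio was the negative one in all 5, and a higher 2U by itself lowers that ratio, so the 2 observations are not independent.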

How the results depend on the processing

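The 34 values of named members at 2-fold or more kept their sign under each pseudocount, filter, scaling and GC setting that could be applied. A pseudocount or a filter cannot turn the sign of a ratio, and the scalings shifted ratios by less than 2-fold. Only the GC and length setting could therefore have turned a sign. The hnRNP median at 2 h was 1.33 with a pseudocount of 1, and the SR median at 2 h was 0.55 after adjustment for GC content and length. The hnRNP minus SR difference at 2 h ranged from 0.18 (mean of at least 10 FPKM) to 1.01 (GC and length) around 0.75. At 4 h it turned to -0.28 with a mean of at least 10 FPKM and to -0.23 with HNRPDL and HNRPLL included, the latter and the adjustment having been chosen after the data were seen. With a pseudocount of 1, counts of called genes at 2 h became 12 higher and 2 lower hnRNP genes and 4 higher and 0 lower SR genes. Of all genes 827 were then higher and 834 lower. Without the filter they became 1981 higher and 1554 lower of all genes at 2 h. A mean of at least 10 FPKM leaves 2226 genes, 11 of them members. At 2 h it gave 5 higher and 1 lower hnRNP and 3 higher and 0 lower SR genes. Of all genes 400 were then higher and 378 lower. At 4 h it gave 4 higher hnRNP and 2 higher SR genes, and 387 higher and 549 lower of all genes. Centring gave at 4 h 10 higher hnRNP and 5 higher SR genes, and 1274 higher and 886 lower of all genes. A fold of 1.5 gave 4 lower hnRNP, 2 lower SR and 1560 lower of all genes at 2 h. At 4 h that fold gave 10 higher hnRNP, 5 higher SR, and 1338 higher and 2281 lower of all genes. A fold of 3 gave 11 higher hnRNP, 2 higher SR, and 658 higher and 444 lower of all genes at 2 h. At 4 h that fold gave 3 higher and 0 lower hnRNP, 1 higher SR, and 355 higher and 593 lower of all genes. The GC and length adjustment gave at 2 h 12 higher and 3 lower hnRNP, 3 higher and 2 lower SR, and 962 higher and 929 lower of all genes. At 4 h it gave 5 higher hnRNP genes and 1 higher SR gene, and 488 higher and 454 lower of all genes.

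In limma, 0 genes were higher and 0 lower at the adjusted threshold with a pseudocount of 0.1, a mean of at least 10 FPKM, no filter, no time term or quantile normalization (522 to 1263 genes at an unadjusted p under 0.05). Leaving out each library in turn, without the time term, gave 0 higher and 0 to 14 lower genes (14 without 4T), and no member in any case. Each of these fits leaves 1 library in a group, so members at an unadjusted p are not counted for them. Only the members that the rule above gives in full were followed over these omissions, so SRSF6, HNRNPA0 and HNRNPUL1 were not. Among those followed, some fold changes turned. That of HNRNPCL1 ranged from -1.87 (without 4U) to 0.27 (without 2U). HNRNPD ranged from -0.30 (without 4U, and -0.18 without 4T) to 0.92 (without 2U). HNRNPF ranged from -0.20 (without 4U, and -0.18 without 2T) to 0.23 (without 2U). SRSF9 ranged from -0.70 (without 4U) to 0.19 (without 2U, and 0.04 without 2T). The cause of these changes was not tested. The term for time pairs the treated and untreated library of each time, and the counts without it are given above.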
